A study of Mus musculus with 24 samples.

Results

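The diet by enema interaction asks how far the colon's response to TNBS, the hapten trinitrobenzene sulfonic acid, depended on whether the mice ate curcumin. It was computed for every probe set as the log2 difference between TNBS and control enema on the curcumin diet minus the same difference on the standard diet. A negative value therefore means a lower TNBS-over-control ratio on curcumin, and a positive value a higher one. All 24 arrays of the study entered, 24 of 24, as 12 arrays of the Affymetrix MOE430 430A type and 12 of the 430B type. Each type has 3 arrays in each of 4 groups: curcumin diet with TNBS enema, curcumin diet with control enema, standard diet with TNBS enema and standard diet with control enema.

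All mice were BALB/c, an inbred laboratory strain, aged 6 to 8 weeks, and no transgene or deletion is named for any group. The curcumin diet held 2% curcumin, the yellow polyphenol of turmeric. Diets began 2 days before the enema on day 0, and the whole colon was taken on day 7. Per the labels, 3 mice of each group were pooled for RNA, and wild-type littermates are mentioned without another genotype. Whether a group's 3 samples are separate pools is not stated in the labels, so p-values measure the spread between these samples, which may be technical.

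TNBS in the colon makes tissue proteins antigenic and provokes a transmural colitis with an influx of neutrophils and macrophages. The inflamed epithelium then makes antimicrobial lectins, acute-phase proteins and chemokines, many of them targets of the transcription factor NF-kappa B, which curcumin is known to inhibit in cultured cells. Secretory and plasma cells under load also raise their endoplasmic reticulum chaperones, the unfolded protein response, while drug-metabolising enzymes and transporters of the absorptive surface are commonly low in colitis.

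The deposited values are linear signals, and levels below are in these signal units, while differences and interactions are in log2 with their standard error. Precision is set by how few arrays there are, and the interaction had a median standard error of 0.417 on 430A and 0.559 on 430B. Epithelial markers were present throughout, with Epcam at 8586 to 11753. Transcripts of the exocrine pancreas were also present, and the summed signal of 22 such genes ran from 43318 to 230933 with overlap between all groups. The first principal component of 430A divided the arrays into 2 sets of 6, and the interaction loads on that division because array set 2 holds 2 curcumin-diet TNBS, 1 curcumin-diet control, 1 standard-diet TNBS and 2 standard-diet control arrays. Of the 430A probe sets, 31.1% differed between the sets at adjusted p under 0.05, so the value once array set was modelled (the array-set value), or the values within each set, stand beside most 430A interactions below. Replicates 2 and 3 of curcumin-diet TNBS colon were outlying on 430B, with a mean correlation of 0.834 with the other 10 arrays, against 0.906 among those 10. A fit without these arrays leaves 1 curcumin-diet TNBS array, whose spread is then taken from the other groups. With 3 arrays a group, separate ranges are common. On 430A, TNBS and control arrays did not overlap for 13.1% of 12393 genes on the standard diet and for 6.84% on curcumin. In bulk colon, fewer cells of a type and less RNA per cell cannot be told apart.

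Across the array, few probe sets passed a test of the interaction, and all that did were negative. On 430B, 4 of 22511 probe sets passed at adjusted p under 0.05 (0.0178%, limma with Benjamini-Hochberg adjustment), namely probe sets of Clca4b, Rhbdf2, Casp9 and Tmem181a. On 430A, 0 of 22626 passed (0%), and the smallest adjusted p was 0.246. Unadjusted p was under 0.05 for 907 negative (4.01%) and 935 positive (4.13%) probe sets of 430A, and for 1428 negative (6.34%) and 1919 positive (8.52%) of 430B. With the array set as a term, 430A still had 0 probe sets past the threshold, with 1390 negative (6.14%) and 1325 positive (5.86%) at unadjusted p under 0.05. Without the 2 outlying arrays, 430B had 0 past the threshold, with 725 negative (3.22%) and 665 positive (2.95%) at unadjusted p under 0.05. Weighting arrays by their estimated quality gave very different counts, with 516 negative and 670 positive probe sets past the threshold on 430A and 734 and 544 on 430B. On 430A that weighting gave curcumin-diet TNBS replicate 2 a weight of 5.45 and replicate 1 a weight of 0.434. Single samples also moved the counts. On 430B, 1322 probe sets passed without curcumin-diet TNBS replicate 1, a fit that keeps only the 2 outlying arrays of that group, 13 without curcumin-diet control replicate 1, and 2 without curcumin-diet control replicate 3 or without standard-diet TNBS replicate 1. On 430A, 3 passed without curcumin-diet control replicate 1 and 1 without curcumin-diet control replicate 3.

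Clca4b, a relative of the secreted chloride channel regulators of the gut, had the largest interaction of the 4. Its signals were 214, 268 and 459 in curcumin-diet TNBS colon and 510.1, 808 and 2830.0 in curcumin-diet control colon, against 12339.8, 4324 and 15797 in standard-diet TNBS colon and 216, 291 and 304 in standard-diet control colon. All standard-diet TNBS arrays lay above every other array, while on curcumin the TNBS arrays lay below the controls. The TNBS difference was -1.82 on curcumin and 5.14 on the standard diet, an interaction of -6.96 ± 0.79 (adjusted p = 0.0109, limma). Curcumin-diet control replicate 3 carried the highest level of its group. Without it the interaction was -6.25 (adjusted p = 0.0102), and without the 2 outlying arrays it was -7.44 (adjusted p = 0.119).

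Rhbdf2 encodes iRhom2, which carries the TNF-releasing protease ADAM17 to the cell surface. Its signals were 253, 222 and 188 in curcumin-diet TNBS colon and 587, 721 and 481 in curcumin-diet control colon, against 759, 994 and 1146 in standard-diet TNBS colon and 201, 283 and 362 in standard-diet control colon. Neither diet's TNBS arrays overlapped with its controls, and the order was opposite on the 2 diets. The TNBS difference was -1.42 on curcumin and 1.80 on the standard diet, an interaction of -3.22 ± 0.38 (adjusted p = 0.0109, limma), or -3.02 without the outlying arrays (adjusted p = 0.190). Here the curcumin-diet controls also lay above the standard-diet controls without overlap, by 1.10, a difference that did not pass (adjusted p = 0.965, limma).

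Casp9, the initiator caspase of the mitochondrial death pathway, showed the same crossed order at 1 of its 3 probe sets. That 430B probe set read 302, 286 and 292 in curcumin-diet TNBS colon and 1279.5, 1299.7 and 1700.3 in curcumin-diet control colon, against 1222, 1227 and 1232 in standard-diet TNBS colon and 839, 252 and 302 in standard-diet control colon. Standard-diet control replicate 1 stood well above the other arrays of its group. The interaction was -3.89 ± 0.48 (adjusted p = 0.0109, limma), or -3.84 without the outlying arrays (adjusted p = 0.190) and -3.75 without curcumin-diet control replicate 3 (adjusted p = 0.077). The 2 probe sets of Casp9 on 430A had interactions of 0.40 and 0.55, with unadjusted p = 0.303 and 0.124, of the opposite sign and short of the threshold.

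Tmem181a, a transmembrane protein gene, read 3502, 1788 and 2032 in curcumin-diet TNBS colon and 4720.0, 5099.6 and 6655 in curcumin-diet control colon, against 7115, 5610.4 and 7415 in standard-diet TNBS colon and 3431, 3233 and 2930.5 in standard-diet control colon. TNBS arrays were below their controls on curcumin and above them on the standard diet, with no overlap on either. Its interaction was -2.28 ± 0.31 (adjusted p = 0.029, limma). Without the outlying arrays it was -1.70 (adjusted p = 0.190), and without curcumin-diet control replicate 3 it was -2.13 (adjusted p = 0.1002).

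Of the 12 leading negative genes, 3 more are on 430B and missed the threshold, namely Prdm11 (-3.18 ± 0.62), Abhd11 (-0.9983 ± 0.20) and Trmt61a (-2.42 ± 0.48), or -3.20, -0.74 and -1.45 without the outlying arrays. A dimmer 430B probe set of Prdm11, with group means no higher than 205, gave -0.53 (unadjusted p = 0.410, limma).

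**Figure D1:**
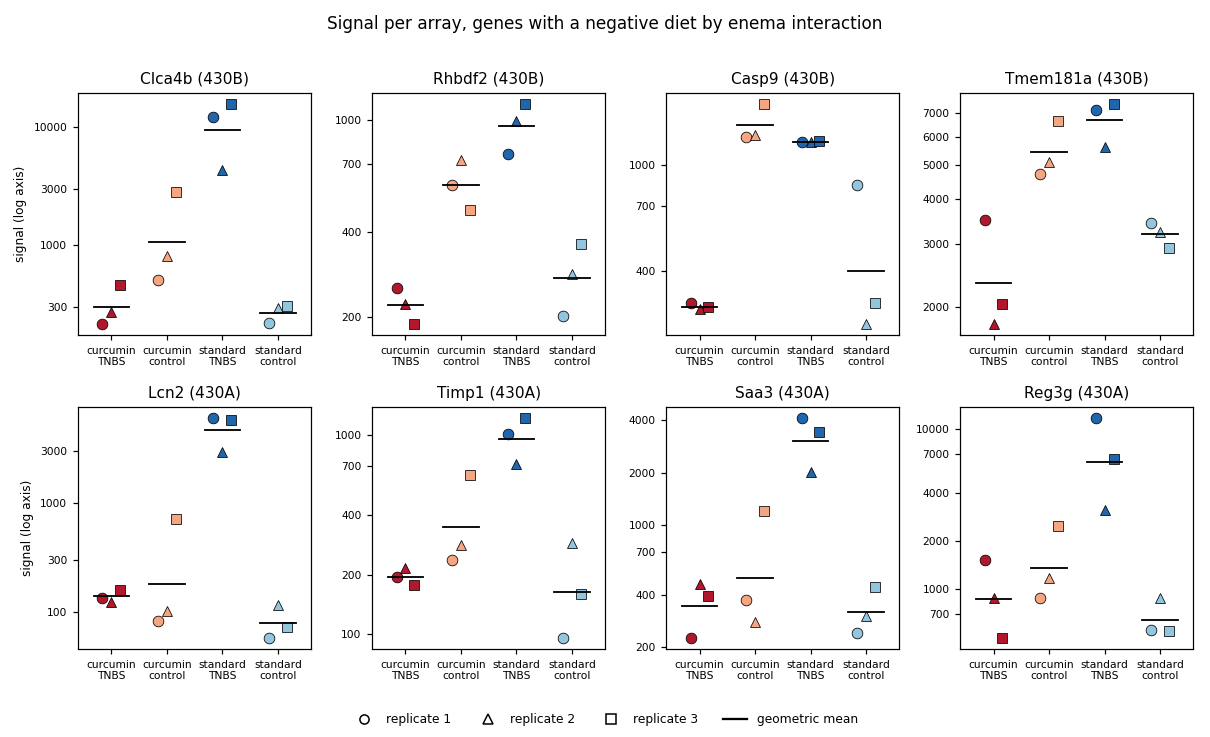
Signal (log axis) of each array for the 4 probe sets past the threshold on 430B (upper row) and 4 leading 430A genes (lower row), in the 4 groups of 3 arrays, with symbols for replicates and a bar for the geometric mean. Standard-diet TNBS arrays of Clca4b, Rhbdf2, Lcn2, Timp1, Saa3 and Reg3g lie above all other arrays, and curcumin-diet control replicate 3 is the highest of its group in each of these but Rhbdf2.

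On 430A the smallest p belonged to Lcn2, which encodes lipocalin 2, a protein of epithelium and neutrophils that binds bacterial siderophores. Its signals were 134, 123 and 159 in curcumin-diet TNBS colon and 82.1, 101 and 710.1 in curcumin-diet control colon, against 6003, 2957 and 5714 in standard-diet TNBS colon and 56.9, 114 and 72.8 in standard-diet control colon. Standard-diet TNBS arrays were far above all others, and on curcumin the TNBS and control arrays overlapped. The interaction was -6.29 ± 0.91 (adjusted p = 0.246, limma), -6.22 once array set was modelled (adjusted p = 0.162), and -7.17 and -5.27 within sets 1 and 2. Without curcumin-diet control replicate 3, the 1 high array of its group, the interaction was -5.30 and passed, with adjusted p = 0.00558. The TNBS difference of 5.90 on the standard diet passed by itself (adjusted p = 0.0171), as 1 of 22626 probe sets of 430A did (0.00442%), while on curcumin the difference was -0.39 (adjusted p = 0.99985) and 0 passed.

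Acute-phase and antimicrobial genes are given next, by kind and not in order of p. Probe sets of Igfbp4 and Ssr4, outside the naming rule, had smaller p than several of them. Their interactions were -1.32 ± 0.21 and 1.87 ± 0.34 (adjusted p = 0.247 and 0.291, limma), or -1.18 and 1.68 once array set was modelled. Lbp, which encodes the lipopolysaccharide-binding protein, read 261, 243 and 234 in curcumin-diet TNBS colon and 284, 376 and 512 in curcumin-diet control colon, against 892, 635 and 872 in standard-diet TNBS colon and 328, 288 and 334 in standard-diet control colon. All curcumin-diet TNBS arrays of Lbp lay below their controls and all standard-diet TNBS arrays above theirs, an interaction of -1.95 ± 0.30 (adjusted p = 0.246). Its array-set value was -1.85, and leaving out curcumin-diet control replicate 1 brought it past the threshold, as did the same omission for Lcn2. A second Lbp probe set, on 430B and with group means no higher than 233, had an interaction of 0.49 (unadjusted p = 0.631).

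Saa3, an acute-phase serum amyloid, read 225, 462 and 392 in curcumin-diet TNBS colon and 372, 278 and 1209.6 in curcumin-diet control colon, against 4098, 2023 and 3425 in standard-diet TNBS colon and 241, 304 and 443 in standard-diet control colon. The standard-diet TNBS arrays stood alone, an interaction of -3.80 ± 0.68 (adjusted p = 0.291), with -4.81 and -3.29 within sets 1 and 2. Reg3g, a lectin that kills Gram-positive bacteria, read 1522, 877 and 492 in curcumin-diet TNBS colon and 874, 1173 and 2458 in curcumin-diet control colon, against 11673, 3127 and 6482 in standard-diet TNBS colon and 554, 874 and 547 in standard-diet control colon. Its interaction was -3.91 ± 0.72 (adjusted p = 0.291), and that of its neighbour in function Reg3b was -2.59 ± 0.53 (adjusted p = 0.291), with -1.15 at another Reg3b probe set. Once array set was modelled these were -3.83 for Reg3g and -2.36 for Reg3b. Pla2g2a, a secreted phospholipase that kills bacteria, averaged 2021 ± 436 in curcumin-diet TNBS colon and 3636 ± 4029 in curcumin-diet control colon, against 10606 ± 1543 in standard-diet TNBS colon and 1328 ± 267 in standard-diet control colon (SD, n = 3 each). The wide spread of its curcumin-diet controls came from replicate 3, at 8279, and the interaction of -3.27 ± 0.78 (adjusted p = 0.346) was -2.38 without that replicate (adjusted p = 0.0669) and -2.94 once array set was modelled.

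Of the 30 antimicrobial and acute-phase genes on 430A, 15 had a negative and 2 a positive interaction at unadjusted p under 0.05, against 4.44% negative and 4.09% positive of all 12393 genes of 430A. Members and lists were chosen with earlier results of these data known, so an excess over these shares is not independent support. The same shares and the same limit belong to each list count below. The list's median interaction was -1.09, beside 0.01 over all 430A genes, and it was -1.51 once array set was modelled and -1.20 and -1.40 within the sets. Its median TNBS difference was -0.15 on curcumin and 1.03 on the standard diet. Hp, the haemoglobin-binding protein haptoglobin, and Lrg1, a leucine-rich acute-phase glycoprotein, were picked after their values were seen and had interactions of -6.83 ± 1.37 and -6.30 ± 1.33, or -6.75 and -6.01 with array set modelled. Outside standard-diet TNBS colon both were dim, at most 82.6 and 66.5, but for curcumin-diet control replicate 3 (348 and 374). Without that replicate the interactions were -5.55 and -4.82, and other settings gave values as small in size as -4.33 and -4.77. The 2 positive members at unadjusted p under 0.05, the goblet cell protein Clca1 (0.62 ± 0.20) and the lectin Itln1 (2.18 ± 0.82), are secreted by goblet or Paneth-type cells, and their array-set values were 0.70 and 2.90. Itln1 read 744, 406 and 239 in curcumin-diet TNBS colon and 45.7, 158 and 67.6 in curcumin-diet control colon, against 483, 731 and 414 in standard-diet TNBS colon and 999, 218 and 420.2 in standard-diet control colon. Its curcumin-diet controls lay below all standard-diet controls, a difference of -2.52 between the diets that did not pass (adjusted p = 0.99898, limma). Under TNBS the difference was -0.34 and the arrays overlapped. The antibacterial ribonuclease Ang4, on 430B, had a diet difference of -0.65 under TNBS and -1.98 in controls (interaction 1.33 ± 0.60, adjusted p = 0.325), with 1.99 without the outlying arrays and 1.62 at its other probe set.

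Neutrophil genes had the most negative median of the 27 lists, although once array set was modelled the antimicrobial median was lower still. Of 18 on 430A, 10 were negative and 0 positive at unadjusted p under 0.05, with a median of -1.24, or -1.45 once array set was modelled. Lcn2, S100a8 and S100a9 stand in this list and in the antimicrobial one. Chil3, a chitinase-like protein of neutrophils and macrophages, read 6, 10.9 and 11.5 in curcumin-diet TNBS colon and 11, 8.5 and 89.9 in curcumin-diet control colon, against 643, 202 and 379 in standard-diet TNBS colon and 7.2, 11.7 and 10.2 in standard-diet control colon. Apart from the standard-diet TNBS arrays and curcumin-diet control replicate 3, all its arrays were very dim, and the interaction was -6.43 ± 1.13 (adjusted p = 0.291), -7.47 and -5.85 within sets 1 and 2. Its size depended on the processing, and the smallest among the other settings was -2.93. S100a8 and S100a9, the subunits of calprotectin, had interactions of -5.06 ± 1.29 and -6.11 ± 1.52 (adjusted p = 0.363 and 0.356), and array-set values of -5.63 and -7.21. S100a9 read 16.8, 91.7 and 232 in curcumin-diet TNBS colon and 93.4, 16.9 and 147 in curcumin-diet control colon, against 1558, 1273 and 3459.9 in standard-diet TNBS colon and 5.9, 42.7 and 54.1 in standard-diet control colon. Outside standard-diet TNBS colon its signals were low and varied widely, and the interaction of S100a9 was -10.04 within set 1 but -4.38 within set 2. The collagenase Mmp8 of neutrophil granules had -1.45 ± 0.39 (adjusted p = 0.382), -1.66 with array set modelled. Summed over the 18 genes, the signal was 2978.5 to 4327 in curcumin-diet TNBS colon and 3646 to 4984 in curcumin-diet control colon, against 10480 to 18265 in standard-diet TNBS colon and 3240 to 3874 in standard-diet control colon. The part of this cell type in the antimicrobial and chemokine results was not tested.

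Macrophage genes had mostly negative interactions of smaller size. Of 25 on 430A, 7 were negative and 0 positive at unadjusted p under 0.05, and the median was -0.35, with -0.50 and -0.50 within the sets. Beside this count and those of the lymphocyte and MHC lists below, 4.44% of all 430A genes were negative and 4.09% positive. Tyrobp, an adaptor of activating receptors on myeloid cells, averaged 491 ± 42.7 in curcumin-diet TNBS colon and 474 ± 24.9 in curcumin-diet control colon, against 816 ± 92.9 in standard-diet TNBS colon and 473 ± 71.9 in standard-diet control colon (SD, n = 3 each), an interaction of -0.75 ± 0.21 (adjusted p = 0.401) and an array-set value of -0.83. The Fc receptor Fcgr2b had -0.70 ± 0.21 and the lipopolysaccharide co-receptor Cd14 -0.95 ± 0.29, or -0.79 and -0.81 with array set modelled. The 3 other Fcgr2b probe sets of 430A gave -0.45, -0.39 and 0.01, and a dim one of 430B, with group means no higher than 124, gave 2.75. T and natural killer cell genes gave 0 of 20 in either direction, and the median of 0.03 turned to -0.16 once array set was modelled. The B and plasma cell list had 2 negative and 0 positive of 14, and the MHC class II list 0 negative and 2 positive of 9, H2-Ab1 (1.08 ± 0.38) and H2-Ea (0.64 ± 0.25), chains of the molecules that present peptides to helper T cells. Neither chain was uniform over its probe sets: the others of H2-Ab1 gave 0.25 and -0.08, and those of H2-Ea -0.14 and -0.93. The interaction of H2-Ab1 was 1.77 and 0.27 within sets 1 and 2, that of H2-Ea was 0.51 once array set was modelled (unadjusted p = 0.0553), and the MHC class II median of 0.22 was 0.42 and -0.01 within the sets.

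Among cytokines and chemokines, 13 of 41 genes on 430A were negative and 0 positive at unadjusted p under 0.05, with a median of -0.43 and -0.39 once array set was modelled. Il1b, the gene of interleukin 1 beta, read 225, 286 and 430.1 in curcumin-diet TNBS colon and 326, 279 and 255 in curcumin-diet control colon, against 780.0, 671 and 1370.1 in standard-diet TNBS colon and 266, 268 and 302 in standard-diet control colon. Only standard-diet TNBS colon stood apart, and the interaction was -1.60 ± 0.39 (adjusted p = 0.351), -2.09 and -1.35 within the sets. Cxcl13, which attracts B cells to lymphoid follicles, had -1.89 ± 0.39, the neutrophil attractant Cxcl1 -2.75 ± 0.72 and interleukin 6 -1.80 ± 0.58 (adjusted p = 0.291, 0.370 and 0.452). Their array-set values were -1.69, -3.23 and -2.08. Interleukin 6 was dim, with group means no higher than 134, and its smallest interaction among the other settings was -0.98. The Cxcl1 value comes from a 430A probe set with group means no higher than 289. Both 430B probe sets of Cxcl1 were brighter, with means of up to 2147 and 1317, and gave -0.74 (unadjusted p = 0.00477) and 0.26 (unadjusted p = 0.437). Ptgs2, the inducible cyclooxygenase, averaged 198 ± 9.66 in curcumin-diet TNBS colon and 298 ± 119.8 in curcumin-diet control colon, against 442 ± 69.8 in standard-diet TNBS colon and 202 ± 44.3 in standard-diet control colon (SD, n = 3 each), an interaction of -1.65 ± 0.38 (adjusted p = 0.346), -1.57 with array set modelled, and of -2.52 at its other probe set.

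No probe set of 430A passed the threshold, the cytokines above included. For 4 other mediators often measured in this colitis, the unadjusted p was 0.374 or more as well (limma). Tnf had 0.48 ± 0.52, Ifng -0.31 ± 0.65, Il10 -0.0002 ± 0.44 and Nos2 -1.01 ± 1.10 (adjusted p = 0.843, 0.920, 0.99986 and 0.842). Tnf read 204, 289.5 and 252 in curcumin-diet TNBS colon and 316, 119 and 193 in curcumin-diet control colon, against 293, 258 and 144 in standard-diet TNBS colon and 192, 299 and 249.5 in standard-diet control colon. TNBS and control arrays overlapped on both diets for each of these 4 genes. Nos2, the inducible nitric oxide synthase, depended on the arrays used: its interaction was -1.95 ± 0.78 once array set was modelled (unadjusted p = 0.0289, adjusted p = 0.360), -0.56 and -3.33 within sets 1 and 2, and -1.68 to -0.31 as each sample was left out. Array-set values were 0.05 for Tnf and -0.53 for Ifng. Ifng and Nos2 were dim, with signals of at most 97.8 and 68.8. Within the NF-kappa B pathway list, 4 of 28 genes were negative and 0 positive, and the median was -0.21, -0.16 and -0.20 within the sets. Its leading members were Bcl3, an atypical I kappa B protein (-0.92 ± 0.33), the adhesion molecule Vcam1 (-1.17 ± 0.43) and the kinase Irak1 (-0.51 ± 0.23), or -0.78, -1.57 and -0.41 with array set modelled. The sign of Irak1 differed among its 430A probe sets, since a second one of like signal gave 0.74 (unadjusted p = 0.0302), while dimmer ones gave -3.18 and -0.69. Other probe sets of Vcam1 gave -1.29 and, at a dimmer one, 1.13. The interferon-induced list had 0 negative and 1 positive of 29, with a median of -0.10, 0.14 and 0.08 within the sets. For both lists the shares over all 430A genes were 4.44% negative and 4.09% positive.

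Matrix and remodelling genes had 13 negative and 1 positive of 36 on 430A, with a median of -0.43, and a median TNBS difference of 0.03 on curcumin and 0.63 on the standard diet. Timp1, the secreted inhibitor of matrix metalloproteinases, read 194, 216 and 178 in curcumin-diet TNBS colon and 237, 281 and 629 in curcumin-diet control colon, against 1017, 722 and 1221 in standard-diet TNBS colon and 95.8, 287 and 159.9 in standard-diet control colon. Its TNBS arrays were below the controls on curcumin and above them on the standard diet, an interaction of -3.39 ± 0.58 (adjusted p = 0.291), with -4.41 and -2.52 within the sets. The collagen cross-linking enzyme Lox had -2.04 ± 0.60 (adjusted p = 0.406), or -1.40 without curcumin-diet control replicate 3, the highest of the 289.9, 242 and 1000.1 read in the controls of that diet. Mmp10, the stromelysin that cleaves basement membrane proteins, had -2.75 ± 0.71, and the array-set values were -1.93 for Lox and -2.62 for Mmp10. The fibril-associated collagen Col12a1 had -2.26 on 430A, while a brighter 430B probe set gave -0.37 (unadjusted p = 0.472). The exception, the matricellular protein gene Postn, had 0.50. Without curcumin-diet control replicate 3 the median of the list was -0.30, and within sets 1 and 2 it was -0.50 and -0.20. Other Lox probe sets gave -1.46 and, at a very dim one, 0.01.

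**Figure D2:**
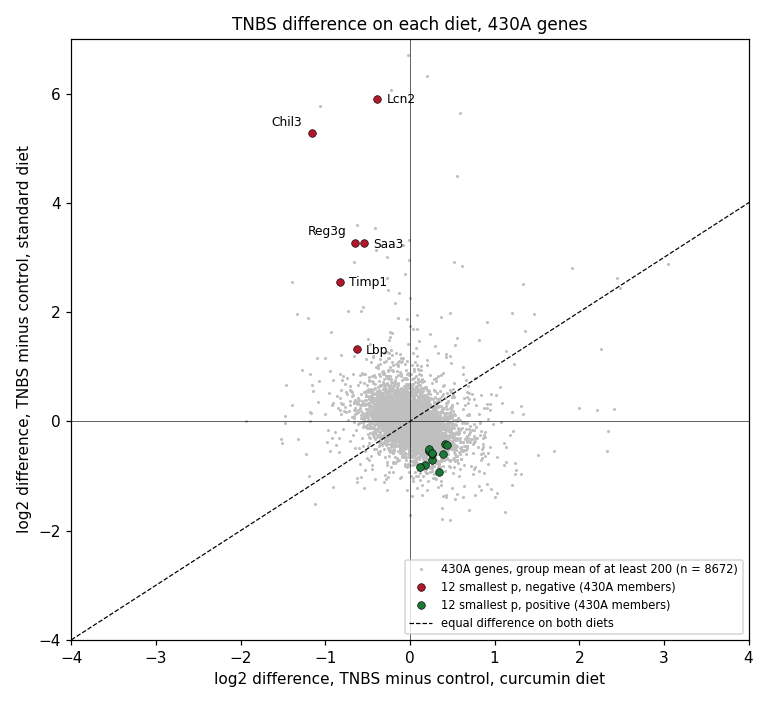
Log2 difference between TNBS and control colon on the curcumin diet (x axis) and on the standard diet (y axis) for the 8672 genes of 430A with a group mean signal of at least 200, with the 430A genes of smallest interaction p in colour. A gene with an equal difference on both diets would lie on the dashed line, and genes with a negative interaction lie above it and those with a positive one below it.

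Endoplasmic reticulum chaperones and stress genes were mostly negative, and many read higher in curcumin-diet than in standard-diet control colon. Of 30 genes in the list, 11 were negative and 0 positive at unadjusted p under 0.05, with a median of -0.46, -0.43 once array set was modelled and -0.35 and -0.48 within the sets. Its median TNBS difference was -0.16 on curcumin and 0.24 on the standard diet, and curcumin over standard diet was -0.07 under TNBS and 0.29 in controls. Leaving out any 1 sample kept the median between -0.50 and -0.39.

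Hyou1, a large chaperone of the reticulum induced by low oxygen, read 832, 779 and 918 in curcumin-diet TNBS colon and 1138, 937 and 1257 in curcumin-diet control colon, against 1102, 996 and 1024 in standard-diet TNBS colon and 699, 755 and 731 in standard-diet control colon. TNBS and control did not overlap on either diet, nor did the diets under either enema. The diet difference of 0.60 in controls did not pass by itself (adjusted p = 0.99898, limma). The interaction was -0.91 ± 0.18 (adjusted p = 0.291), or -0.96 once array set was modelled. Its other probe sets gave -0.49 and -0.61. Hsp90b1, the reticulum's HSP90, read 2766, 2736 and 2591 in curcumin-diet TNBS colon and 3267, 3363 and 3583 in curcumin-diet control colon, against 2909, 2739.7 and 2766 in standard-diet TNBS colon and 2645, 1904 and 2069.7 in standard-diet control colon. Under TNBS the diets overlapped, at a difference of -0.06. In controls they did not, at 0.64, though that difference did not pass (adjusted p = 0.919, limma). The interaction was -0.70 ± 0.17 (adjusted p = 0.346, -0.62 with array set modelled). Another 430A probe set of Hsp90b1, with group means of up to 2451, gave -0.10 (unadjusted p = 0.692). Manf, a secreted protein of stressed cells, had -1.19 ± 0.26, and the co-chaperone Creld2, picked after its values were seen, -1.10 ± 0.29, with array-set values of -1.01 and -1.03. Hspa5, the master chaperone BiP, averaged 7127 ± 716 in curcumin-diet TNBS colon and 8575 ± 1322 in curcumin-diet control colon, against 5535 ± 1004 in standard-diet TNBS colon and 4756 ± 759.8 in standard-diet control colon (SD, n = 3 each), with an interaction of -0.48 ± 0.24 (adjusted p = 0.643) and a diet difference of 0.85 in controls. Its other probe sets gave -1.11 on 430A (unadjusted p = 0.000797) and 0.06 on 430B. Ddit3, which encodes the stress factor CHOP, had a diet difference of 0.51 under TNBS and 1.41 in controls (interaction -0.90 ± 0.43, adjusted p = 0.621, -1.81 and -0.41 within sets 1 and 2), and -0.06 at a dimmer 430B probe set.

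Some of these genes carry the ER stress element, CCAAT and CCACG parted by any 9 bases, on either strand, in the 250 bases before their start. In the RefSeq promoters of GRCm38.p6, 37 of 32851 such windows hold it (0.113%), against 8 of the 26 windows found for the list. Promoters of 4 members are shown, with the element in capitals, to let the element be seen beside the values above. Hsp90b1 (chr10:86705445-86705694, minus strand) holds it on both strands, Creld2 (chr15:88819396-88819645, plus strand) in reverse, and Pdia6 (chr12:17266339-17266588, plus strand) and Hspa5 (chr2:34771840-34772089, plus strand) in the forward sense.
Hsp90b1: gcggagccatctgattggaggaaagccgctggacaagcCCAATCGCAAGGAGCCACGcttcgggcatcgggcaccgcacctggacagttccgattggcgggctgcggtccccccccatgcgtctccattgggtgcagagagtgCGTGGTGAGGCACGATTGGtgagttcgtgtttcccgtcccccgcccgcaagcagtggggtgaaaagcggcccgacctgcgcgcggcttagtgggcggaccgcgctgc
Creld2: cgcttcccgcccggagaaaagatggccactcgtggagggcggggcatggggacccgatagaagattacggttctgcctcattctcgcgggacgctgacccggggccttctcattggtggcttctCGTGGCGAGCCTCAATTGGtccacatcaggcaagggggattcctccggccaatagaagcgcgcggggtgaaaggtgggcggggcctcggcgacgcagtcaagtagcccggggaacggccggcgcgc
Pdia6: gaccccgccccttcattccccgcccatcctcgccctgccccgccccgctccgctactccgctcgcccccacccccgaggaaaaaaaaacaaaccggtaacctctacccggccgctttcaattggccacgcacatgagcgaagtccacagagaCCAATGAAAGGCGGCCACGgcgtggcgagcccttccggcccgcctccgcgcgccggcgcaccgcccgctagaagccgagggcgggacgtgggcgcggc
Hspa5: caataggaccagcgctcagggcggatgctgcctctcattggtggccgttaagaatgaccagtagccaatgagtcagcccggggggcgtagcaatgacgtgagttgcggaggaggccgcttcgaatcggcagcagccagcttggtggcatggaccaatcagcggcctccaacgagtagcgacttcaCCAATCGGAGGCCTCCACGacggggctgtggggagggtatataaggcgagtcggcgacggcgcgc

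Genes with the element had interactions of both signs. Of the 35 genes with the element, 17 are measured on 430A, and 4 of them were negative and 0 positive at unadjusted p under 0.05, with a median interaction of 0.01. All 4, Creld2, Pdia6 (the protein disulfide isomerase P5, -0.92, array-set value -0.64), Hsp90b1 and Syvn1 (the ubiquitin ligase HRD1, -0.38), belong to the 8 that are also on the chaperone list, whose median was -0.43. Of the other 9, 0 had an unadjusted p under 0.05 in either direction, and their median was 0.12. Of the 12 genes with a negative interaction and the smallest p, 10 had a promoter window. An NF-kappa B-type motif (GGGA and CC parted by any 4 bases, either strand) lay in 3 of those 10 and in 17.6% of all windows, and a STAT-type motif (TTC and GAA parted by any 3 bases, either strand) in 1 of 10 and in 7.02%. A match is a description of letters and not a site in use.

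Several of the leading positive genes were lowest in standard-diet TNBS colon. Aldh1a1, which makes retinoic acid from retinal, read 4893, 5131 and 4938 in curcumin-diet TNBS colon and 4482, 4454 and 3895 in curcumin-diet control colon, against 2873, 3131 and 2557 in standard-diet TNBS colon and 3915, 4191 and 4343 in standard-diet control colon. TNBS arrays lay above the controls on curcumin and below them on the standard diet, without overlap, and the interaction was 0.77 ± 0.15 (adjusted p = 0.291), or 0.70 and 0.74 within the sets. Abcb1a, the drug efflux pump P-glycoprotein, read 5220.4, 5319.8 and 4639.5 in curcumin-diet TNBS colon and 4537, 5015 and 4399 in curcumin-diet control colon, against 2231, 3444 and 2710.1 in standard-diet TNBS colon and 5235, 4929 and 4588 in standard-diet control colon. The standard-diet TNBS arrays were below all others, an interaction of 0.96 ± 0.20 (adjusted p = 0.291), 1.08 with array set modelled, and of 0.91 at its other probe set. Ugt2b5, a glucuronosyltransferase, averaged 448 ± 152 in curcumin-diet TNBS colon and 430.3 ± 91.2 in curcumin-diet control colon, against 146 ± 31.7 in standard-diet TNBS colon and 371 ± 46.3 in standard-diet control colon (SD, n = 3 each), an interaction of 1.39 ± 0.37 (adjusted p = 0.383), 2.04 and 0.85 within sets 1 and 2. A further glucuronosyltransferase, Ugt2b36 on 430B, had 1.69 ± 0.36 (adjusted p = 0.142), or 2.00 without the outlying arrays.

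Of the 37 detoxification genes on 430A, 11 were positive and 0 negative at unadjusted p under 0.05. The list's median was 0.43, with 0.49 and 0.48 within the sets and 0.27 without curcumin-diet control replicate 3. The median TNBS difference was -0.01 on curcumin and -0.39 on the standard diet. Absorptive colonocyte genes had 8 positive and 0 negative of 35, with a median of only 0.07, 0.17 with array set modelled and -0.03 without curcumin-diet control replicate 3. The phosphate transporter Slc20a1 led them with 1.01 ± 0.22, followed by the steroid-oxidising enzyme Hsd17b2 with 0.65 ± 0.21, or 1.05 and 0.73 with array set modelled. The sodium-proton exchanger Slc9a3, measured on 430B, had -1.30 ± 0.30 (-1.13 without the outlying arrays), and -0.25 at a dimmer probe set. Nrf2 targets had both signs, with 4 negative and 4 positive of 30, beside 4.44% negative and 4.09% positive of all 430A genes. Gpx2, the glutathione peroxidase of the gut, had -1.02 ± 0.29 and the metallothionein Mt2 -1.12 ± 0.34, or -1.11 and -1.22 with array set modelled. Nqo1 had 0.07 ± 0.24 (adjusted p = 0.960). Hmox1, the haem-degrading oxygenase, had -1.23 ± 1.37 (adjusted p = 0.844), but -0.06 once array set was modelled, -2.38 and 2.26 within sets 1 and 2, and -2.59 to -0.53 as each sample was left out. Akr1b8, an aldo-keto reductase of the Nrf2 programme, averaged 2037 ± 181 in curcumin-diet TNBS colon and 2673 ± 222 in curcumin-diet control colon, against 1660.3 ± 225 in standard-diet TNBS colon and 1445 ± 255 in standard-diet control colon (SD, n = 3 each). Its diet difference was 0.30 under TNBS and 0.90 in controls (adjusted p = 0.675 and 0.385, limma), an interaction of -0.60 ± 0.21 (adjusted p = 0.488, -0.45 with array set modelled).

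**Figure D3:**
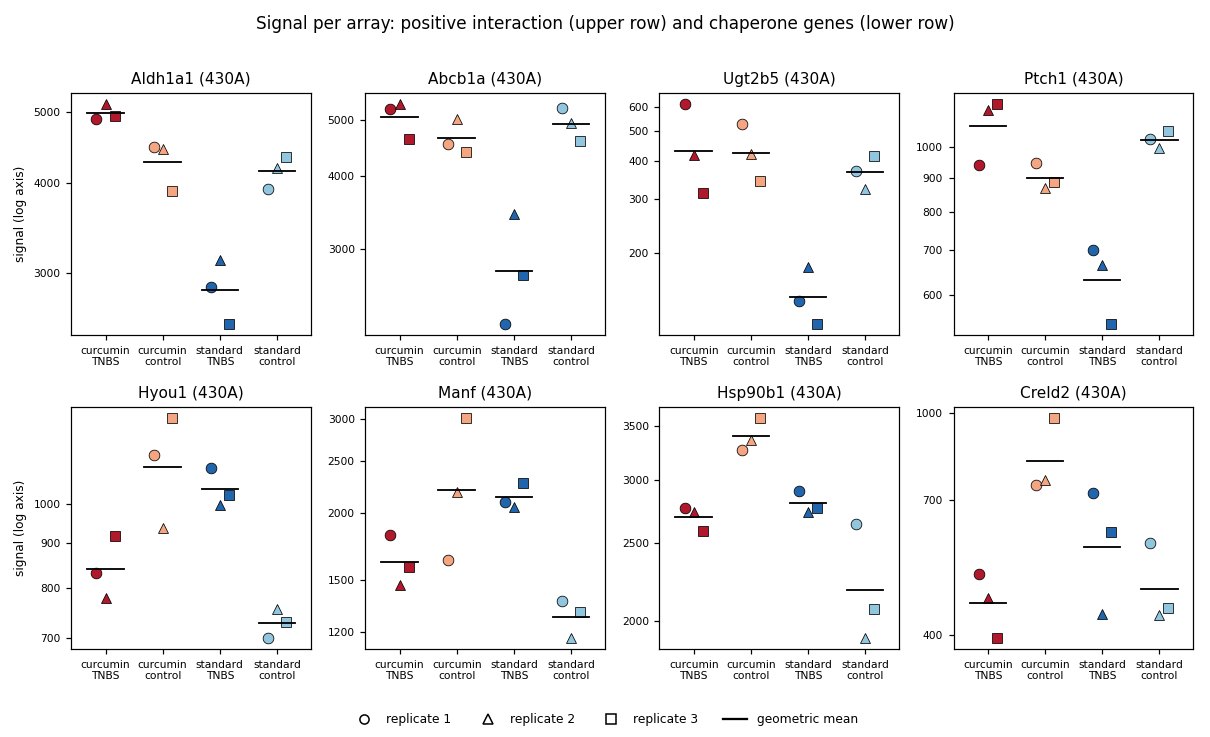
Signal (log axis) of each array for 4 genes with a positive interaction (upper row) and 4 chaperone genes with a negative one (lower row), in the 4 groups of 3 arrays, with symbols for replicates and a bar for the geometric mean. In the upper row the standard-diet TNBS arrays are the lowest, and in the lower row the curcumin-diet controls have a higher mean than the standard-diet controls.

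Signalling and stromal genes also stood among the 12 leading positive genes, which further held Sh3d19 (0.83 ± 0.17), Car8 (0.97 ± 0.21) and 2510009E07Rik (0.87 ± 0.19), with array-set values of 0.86, 0.94 and 0.86. Ptch1, the hedgehog receptor, read 939.8, 1136 and 1162 in curcumin-diet TNBS colon and 948, 868 and 886 in curcumin-diet control colon, against 699, 664 and 542 in standard-diet TNBS colon and 1028, 996 and 1058 in standard-diet control colon. The standard-diet TNBS arrays were again lowest, and the interaction was 0.96 ± 0.18 (adjusted p = 0.291), 0.85 with array set modelled, though a dimmer 430A probe set gave 0.30 and a 430B one -0.35. The vesicle GTPase Rab27b had 1.00 ± 0.20, carboxypeptidase E, Cpe, which trims peptide hormones, 1.26 ± 0.25, and the proteoglycan Ogn 0.85 ± 0.18. Sparcl1, a matricellular protein of vessel walls, had 0.86 ± 0.17 and the receptor phosphatase Ptprd 0.73 ± 0.15, each of these 5 with adjusted p = 0.291. Their array-set values ran from 0.78 for Ptprd to 1.25 for Cpe. Both 430B probe sets of Rab27b gave less, 0.01 (unadjusted p = 0.954) at the brightest of the gene and 0.19 at the other. Of the other 430A probe sets of Ptprd, Cpe, Sh3d19 and Car8, those of Ptprd gave 0.23 and 0.25, a dim one of Cpe -0.72, a dimmer one of Sh3d19 -0.41 and a dim one of Car8 -0.13. Rgs5, a regulator of G protein signalling in pericytes, was picked after its values were seen. One of its probe sets read 1304, 1291 and 1342 in curcumin-diet TNBS colon and 1341, 900.3 and 1009 in curcumin-diet control colon, against 687, 828 and 806 in standard-diet TNBS colon and 1509, 1463 and 1629 in standard-diet control colon, with an interaction of 1.29 ± 0.20 (adjusted p = 0.246, 1.24 with array set modelled). Its other 3 probe sets gave 0.74, 0.57 and 1.39. A probe set of Rgs5 passed beside Lcn2 and Lbp when curcumin-diet control replicate 1 was left out.

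Adipocyte genes had 3 positive and 0 negative of 16, with a median of 0.68 that ranged from 0.44 to 0.91 as each sample was left out. Scd1, the stearoyl desaturase of lipid-making cells, had 1.49 ± 0.60 and the fat cell regulator Pparg 0.72 ± 0.33, or 1.78 and 0.84 with array set modelled. The summed signal of the 16 genes was 20199 to 32757 in curcumin-diet TNBS colon and 18688 to 31246 in curcumin-diet control colon, against 11195 to 25039 in standard-diet TNBS colon and 25874 to 30222 in standard-diet control colon, so 1 array, standard-diet TNBS replicate 1, set the low end. The part of adipocytes in the other positive genes was not tested. Cell cycle genes had 2 negative and 0 positive of 30, near the shares over all 430A genes of 4.44% negative and 4.09% positive. Once array set was modelled, 6 were negative and 0 positive, beside 6.79% negative and 6.33% positive of all 430A genes. The cell cycle median of -0.44 was -0.11 within set 1 and -0.79 within set 2. The enteric neuron and glia median of 0.38 turned to -0.06 once array set was modelled. Cholesterol synthesis (22 genes), oxidative phosphorylation (33) and endothelium (18) each had 0 members in either direction at unadjusted p under 0.05, and 1 positive, 1 positive and 1 negative member once array set was modelled.

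**Figure D4:**
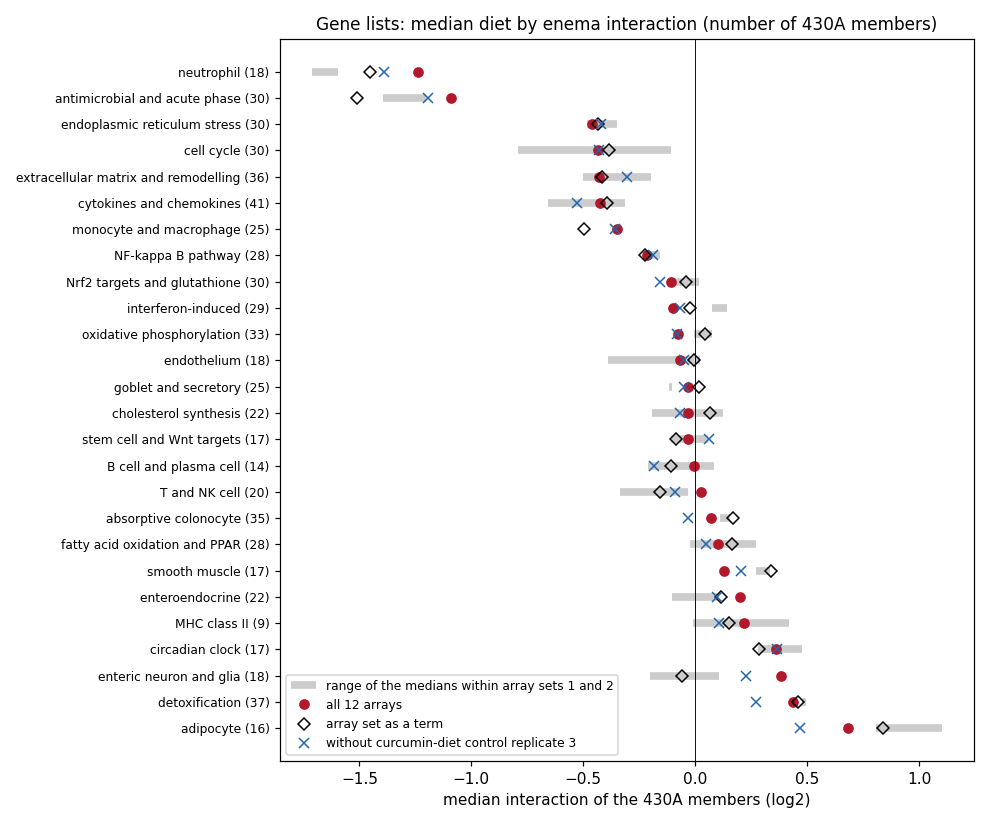
Median interaction (log2) of the 430A members of 26 gene lists, with the number of members in brackets, for all 12 arrays, once array set was modelled, without curcumin-diet control replicate 3, and as the range between the 2 array sets. Pancreas acinar genes are left out because their median ran from -2.02 to 1.36 between the sets. Over all 12 arrays, neutrophil and antimicrobial lists have the lowest medians and adipocyte and detoxification lists the highest.

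Both components of the contrast contributed to the genes at unadjusted p under 0.05, and the choice of those genes by the interaction favours opposite signs. Among the 550 negative genes of 430A, the median TNBS difference was -0.31 on curcumin and 0.53 on the standard diet, and the standard-diet difference was the larger in size for 395 (71.8%). Among the 507 positive genes it was 0.28 on curcumin and -0.48 on the standard diet, and the standard-diet difference was the larger for 385 (75.9%). Over all 12393 genes of 430A the standard-diet difference was the larger for 56.6%. Seen across diets, curcumin over standard diet had a median of -0.54 under TNBS and 0.32 in controls for the negative genes, and 0.50 and -0.28 for the positive ones.

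Of the 101 named genes of 430A, 97 had the same sign within both array sets, and the others were Hmox1, Il10, Nqo1 and Tnf. Most of the 101 were chosen by their interaction over these same arrays, which itself favours equal signs, so the count is no sign of stability. Over all 12393 genes of 430A the signs were equal for 58.3%, and over the 8672 with a group mean of at least 200 for 59.9%. Within-set values rest on 1 or 2 arrays a group.

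**Figure D5:**
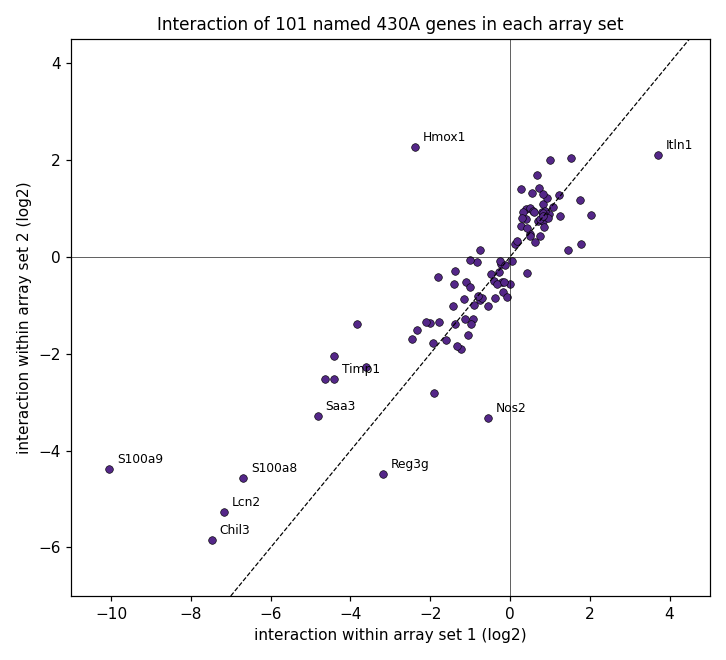
Interaction (log2) within array set 1 (x axis) and within array set 2 (y axis) for the 101 named genes of 430A, with a dashed line of equality. The choice of most of these genes by their interaction favours equal signs in both sets, which 97 of them have. Hmox1 lies farthest from the line among the others, and S100a9 is far more negative in set 1.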

How the data were processed

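Colon RNA was measured on Affymetrix MOE430 430A and 430B arrays, 12 of each. The deposited values are linear signal intensities per probe set, made by the authors. The submitters' processing notes name GCOS, and its role, version and settings are not given in the sources used here. The mean after trimming 2% at each end was at least 497.8 on every 430A array and 496.7 on every 430B array. Groups came from the sample labels, and replicate numbers are names given in accession order.

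From these values, log2 of the signal was taken with no pseudocount, filter or further scaling, and control probe sets of the array maker were left out. Each array type was fitted apart with 1 mean per group in limma 3.58.1 (lmFit, eBayes with an intensity trend) under R 4.3.3, with 8 residual degrees of freedom, Benjamini-Hochberg adjustment within the array type and a threshold of 0.05. The code was tested on simulated data. Few arrays per group limit the precision.

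The platform annotation gave 1 symbol to 20380, several to 691 and none to 1555 of the 22626 probe sets of 430A, and 1 to 14661, several to 245 and none to 7605 of the 22511 of 430B. A gene was represented by its probe set of highest mean log2 signal, from 430A where possible. Named genes had a group mean of at least 200 and were the 12 of smallest p in each direction and up to 3 members of each list, beside a fixed set of genes often measured in this colitis and the probe sets past the threshold. Genes said to be picked after their values were seen fall outside that rule. The members and lists were chosen with earlier results of these data known. Of 740 genes in 27 lists, 652 were measured on 430A and 28 on 430B alone. Promoter sequences are from RefSeq (GRCm38.p6).

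Alternatives were pseudocounts of 16 and 64, leaving out probe sets below the 40th percentile, quantile normalization, median centring, no trend, array weights, an array set term, leaving out outlying arrays (first principal component over 5 median absolute deviations from the median), a threshold of 0.1 and leaving out each sample.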

Additional observations from a re-analysis of the deposited data

Results flagged for a closer look

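The TNBS difference itself differed between the diets, by the interaction test, for 4 probe sets of 430B. The interaction was -6.96 for Clca4b, -3.89 for 1 probe set of Casp9, -3.22 for Rhbdf2 and -2.28 for Tmem181a (log2, limma, n = 3 arrays per group, adjusted p = 0.0109, 0.0109, 0.0109 and 0.029). For each of them all 3 TNBS arrays were below all 3 controls on curcumin and above them on the standard diet. Their choice by this same contrast favours such an order, so it adds no support. Among 430A genes, TNBS and control arrays did not overlap for 13.1% on the standard diet and 6.84% on curcumin. All 4 are on the array type with the 2 outlying curcumin-diet TNBS arrays. The array set of 430B, by its own first principal component, consists of these same 2 arrays. A term for that set is thus no separate check from leaving those arrays out. Without those arrays 0 of the 4 passed (adjusted p = 0.119, 0.190, 0.190 and 0.190), and 0 probe sets of 430B passed with no trend or with the array set of that type as a term.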

How the results depend on the processing

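No paired analysis was possible because the numbers in the sample titles run on across groups and tie only the 430A and 430B arrays of a sample. On 430A, 0 probe sets passed under both pseudocounts, the filter, both together, quantile normalization, median centring, no trend and the array set term, and 1186 passed with array weights. As each sample was left out, the count was 0 to 3: Rgs5, Lcn2 and Lbp without curcumin-diet control replicate 1, and Lcn2 without replicate 3 of that group. No array of 430A met the outlier threshold, so leaving such arrays out gave no value there. On 430B the array set of its own type is the 2 outlying arrays. A term for it and leaving them out are therefore not separate checks. There, 4 passed under both pseudocounts and quantile normalization, and 3 under median centring. The count was 9 with the filter, alone or with the pseudocount of 16, 10 at adjusted p under 0.1, 1278 with array weights, and 0 with no trend, with the array set of its own type or without the outlying arrays. Of fits added after seeing the data, the 430A array set without the outlying arrays gave 0, and the pseudocount of 16 with the filter and without those arrays gave 1, Clca4b. A further such fit, the 430A array set as a term on 430B with no array left out, gave 3. These were Casp9, Clca4b and Rhbdf2, without Tmem181a (smallest adjusted p = 0.0364, limma). Leaving out each sample gave 2 to 1322 on 430B, the highest without curcumin-diet TNBS replicate 1, which leaves only the 2 outlying arrays in that group. Without curcumin-diet control replicate 1 the count was 13, and without curcumin-diet control replicate 3 or standard-diet TNBS replicate 1 it was 2. The median interaction of 430B was 0.18, and median centring took the positive share at unadjusted p under 0.05 to 28.8%, against 57.3%. The cause of these shifts was not tested. Of 1336 values of 61 single genes under an alternative, 1243 kept direction and side of the threshold. All but 4 of the 61 start short of the threshold, where staying short counts as kept, so that count is no sign of stability. The 4 that pass account for all 32 values that lost the threshold. As each of 12 samples was left out, Clca4b and Rhbdf2 passed 12 times, Casp9 10 times and Tmem181a 3 times. In 4 genes, 13 values changed sign or, for Muc2, fell to 0.0000. Il10 was 0.0050 and 0.0116 with pseudocounts of 16 and 64, 0.4191 with array weights, and -0.1502 to 0.2799 as each sample was left out. Ifng was -0.6383 to 0.0474 as each was left out, positive only without curcumin-diet TNBS replicate 1, and Muc2 was 0.0000 under quantile normalization. Nqo1 was -0.0139 with the array set, -0.0143 with the pseudocount, filter and array set, and -0.1221 to 0.1935 as each sample was left out. Of 567 list medians, 492 moved by less than the spread between replicates.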

Other observations

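Colonocyte transport genes gave values of both signs. Slc26a2, a sulfate transporter of colonocytes, had an interaction of 0.54, the carbonic anhydrase Car2 0.48 and the butyrate transporter Slc16a1 0.43, each positive and each short of the threshold after adjustment. The 430B probe sets of Slc26a2 and Slc16a1 gave 0.03 and, at low signal, -1.85. On 430B the exchanger Slc9a3 read 6288, 5689 and 4808 in curcumin-diet TNBS colon and 7477, 6594 and 12637 in curcumin-diet control colon, against 9126, 9097 and 10066 in standard-diet TNBS colon and 5094, 5559 and 7107 in standard-diet control colon (adjusted p = 0.153). Circadian clock genes had a median of 0.36 over 17 genes. At unadjusted p under 0.05, 1 was negative and 1 positive, near the 4.44% and 4.09% of all 430A genes.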
